A study of Mus musculus with 12 samples.

Results

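The genes of cholesterol synthesis and transport were followed in the mouse proximal colon after deletion of EPR, a long noncoding RNA of epithelial tissues that is listed in the count table as Smim31. The set held 34 genes of the 55376 in the table, taken by their gene symbols. Of these, 5 belong to the control of the sterol regulatory element binding proteins (SREBPs), 8 act from acetyl-CoA to isoprenoids, 12 act from squalene to cholesterol, 4 serve uptake and intracellular transport, 3 serve efflux, and 2 esterify cholesterol. Gene expression had been measured by RNA-Seq of ribosome-depleted total RNA in 12 mice aged 12 weeks, with 1 library per mouse. The 6 control mice were EPR fl/fl, in which the EPR promoter and exon 1 lie between loxP sites. The 6 EPR cKO mice carried the same alleles and, in addition, the CDX2P-NLS Cre transgene, in which human CDX2 regulatory sequence drives Cre in epithelial cells from the distal ileum through the cecum to the colon. The controls had no Cre, so that the effects of Cre and of the deletion cannot be told apart.

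Cells make cholesterol from acetyl-CoA through mevalonate, squalene and lanosterol, and the enzymes of this route are targets of SREBP-2. When sterols are low in the endoplasmic reticulum, SCAP carries SREBP-2 to the Golgi, where proteases release its transcription factor domain, and when sterols are high, INSIG proteins hold SCAP back. In the intestine, renewing epithelium draws on its own synthesis as well as on sterols taken up, and excess sterol leaves through ABC transporters or is stored as esters.

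Whole frozen tissue had been used, so that fewer cells of a type and less RNA per cell cannot be told apart. Total counts ran from 13093904 to 33211041 per library. Values below are in CPM, counts relative to the total count of the library, scaled by trimmed mean of M values (TMM), and log2 fold changes are EPR cKO relative to EPR fl/fl. EPR itself fell from 39.4 ± 14.5 to 0.132 ± 0.151 CPM (SD, n = 6 per genotype; log2 fold change −8.09, SE 0.47). The 10 epithelium markers were present in all libraries, with sums of 7767 to 12066 CPM in control mice and of 9587 to 14566 CPM after the deletion. The share of epithelium against muscle, taken as the mean log2 CPM of 10 epithelium markers minus that of 8 smooth muscle markers (the tissue composition score), averaged 1.13 ± 0.27 for the controls and 2.36 ± 1.35 for EPR cKO (SD, 6 libraries each, two-sided exact permutation p = 0.0563). It ran from −0.09 in EPR cKO 1 to 3.59 in EPR cKO 5, and from 0.85 to 1.56 in EPR fl/fl. EPR cKO 1 therefore lay below all control libraries and the other 5 EPR cKO libraries above them, and named genes whose call changes without EPR cKO 1 are given with and without it.

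RefSeq promoters (250 bases before to 50 after an annotated start, GRCm38.p6) were found for 28 of the 34 genes, and those of Fdft1, Fdps, Soat2, Stard4, Npc1 and Sqle were not used here. Promoters are shown for Hmgcs1, the reference for co-variation below, for Msmo1, the gene of the set that followed it most closely over the libraries, for Srebf2, which encodes SREBP-2, and for Dhcr7 and Soat1, the genes that passed the test between genotypes. Capitals mark matches on either strand to the sterol regulatory element core TCACNCCA, to which SREBPs bind, and to the CCAAT box, a site of the factor NF-Y that often lies beside it. The motifs share no bases in these sequences. The promoters lie at chr13:119690101-119690400 (plus strand), chr8:64733529-64733828 (minus strand), chr15:82147019-82147318 (plus strand), chr7:143829964-143830263 (plus strand) and chr1:156474279-156474578 (minus strand). For Dhcr7, which has several annotated starts, the promoter with CCAAT matches is shown.
Hmgcs1: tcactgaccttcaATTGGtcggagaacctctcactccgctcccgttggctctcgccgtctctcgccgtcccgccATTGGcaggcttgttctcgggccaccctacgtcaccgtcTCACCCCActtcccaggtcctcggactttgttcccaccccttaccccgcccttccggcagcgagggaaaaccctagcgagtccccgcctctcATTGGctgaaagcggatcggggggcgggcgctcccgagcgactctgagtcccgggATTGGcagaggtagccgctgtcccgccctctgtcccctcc
Msmo1: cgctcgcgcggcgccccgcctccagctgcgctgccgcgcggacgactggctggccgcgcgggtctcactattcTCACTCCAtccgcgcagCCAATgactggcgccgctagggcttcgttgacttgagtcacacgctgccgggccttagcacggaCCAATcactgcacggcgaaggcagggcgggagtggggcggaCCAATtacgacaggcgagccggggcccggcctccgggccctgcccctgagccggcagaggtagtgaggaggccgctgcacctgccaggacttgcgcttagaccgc
Srebf2: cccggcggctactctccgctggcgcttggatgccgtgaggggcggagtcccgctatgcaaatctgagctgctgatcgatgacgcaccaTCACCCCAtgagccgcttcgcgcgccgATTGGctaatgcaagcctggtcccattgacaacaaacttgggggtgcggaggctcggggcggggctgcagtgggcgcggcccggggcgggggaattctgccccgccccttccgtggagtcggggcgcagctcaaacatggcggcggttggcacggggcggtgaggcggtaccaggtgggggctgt
Dhcr7: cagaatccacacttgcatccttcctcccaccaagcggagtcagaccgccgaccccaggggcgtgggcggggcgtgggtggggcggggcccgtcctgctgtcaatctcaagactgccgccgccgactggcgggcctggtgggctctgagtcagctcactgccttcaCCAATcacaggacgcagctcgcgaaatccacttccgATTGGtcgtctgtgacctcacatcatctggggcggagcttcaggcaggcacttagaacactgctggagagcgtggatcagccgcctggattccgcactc
Soat1: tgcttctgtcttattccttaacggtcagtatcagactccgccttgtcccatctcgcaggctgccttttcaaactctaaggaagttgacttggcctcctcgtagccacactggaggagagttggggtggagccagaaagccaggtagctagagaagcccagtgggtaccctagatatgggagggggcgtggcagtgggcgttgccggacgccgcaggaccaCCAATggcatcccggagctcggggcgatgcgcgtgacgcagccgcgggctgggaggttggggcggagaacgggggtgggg

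The sterol regulatory element core was found in 3 of the 28 genes, at −137 in Hmgcs1, −177 in Msmo1 and −162 in Srebf2, counted in bases from the start site to the first base of the match. It occurs in the promoters of 4.97% of 27025 genes in the table. The CCAAT box was found in 25 of the 28 genes and in 16 of the 17 synthesis genes with a promoter, against 41.1% of all genes, where genes with several promoters have more chances of a match. Dhcr7 held matches at −85 and −49, and Soat1 held 1 match at −30. The core is short and was searched without mismatches, so that these letters mark positions and not bound sites.

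**Figure D1:**
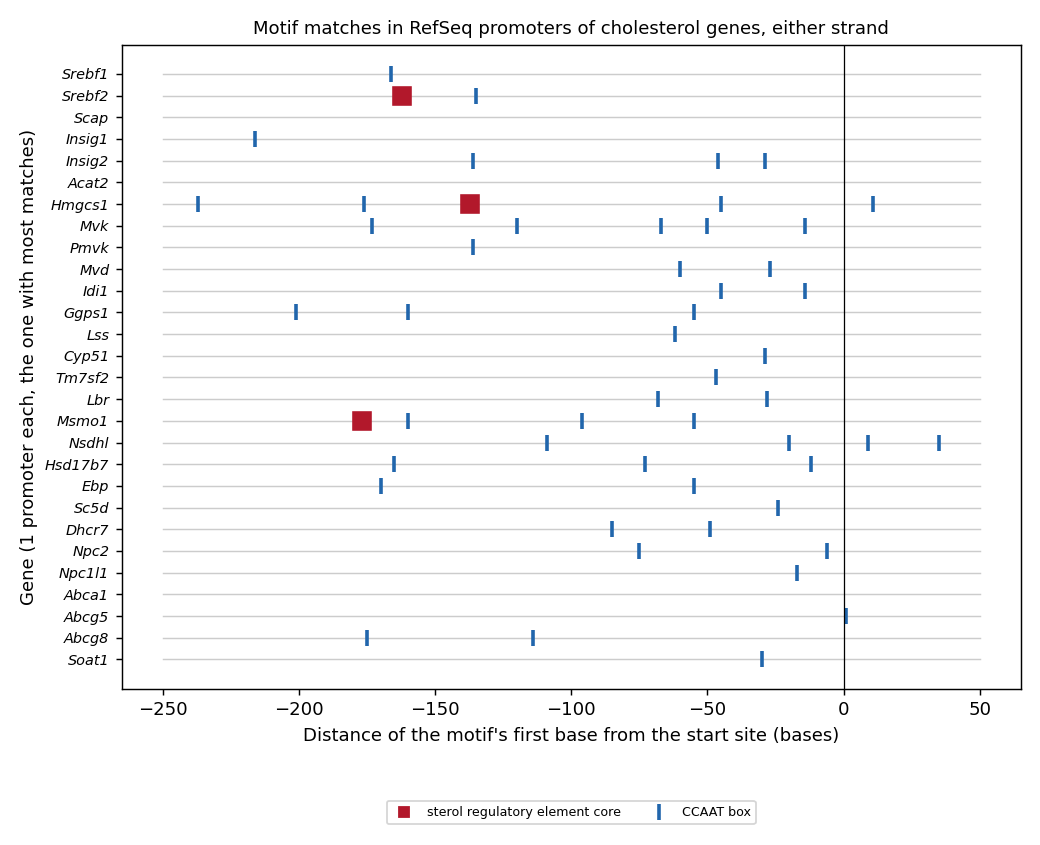
Positions of the sterol regulatory element core (squares) and the CCAAT box (ticks) in the promoters of 28 cholesterol genes, 1 promoter per gene, as the distance in bases from the annotated start site. The squares lie in Srebf2, Hmgcs1 and Msmo1 alone, and ticks appear in 25 genes.

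All 34 genes passed the filter on low counts (at least 1 CPM in at least 4 libraries), as did 15952 genes in all. In the comparison of genotypes, 1 of the 34 genes was higher in EPR cKO at an adjusted p under 0.05 (2.94%, against 0.884% of all tested genes) and 1 was lower (2.94%, against 1.57%). In either direction 2.46% of all tested genes passed, so that these counts lie close to the background. The genes were Dhcr7, which was higher, and Soat1, which was lower. They were also the genes of the set whose groups did not overlap, with 1 higher, against 1% of all tested genes, and 1 lower, against 1.47%. None of the 34 passed the stricter thresholds of the study (a corrected p under 0.001 together with a minimum fold), which 0.169% of all tested genes passed.

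Below the adjusted threshold the set leaned to higher values. The log2 fold change was above 0 in 28 of 34 genes (82.4%, against 52.9% of all tested genes), with a median of 0.29, where that of all tested genes was 0.02. At an unadjusted p under 0.05, 15 genes were higher (44.1%, against 11.1%) and 2 were lower (5.88%, against 7.12%), and 18.3% of all tested genes lay under this limit in either direction. The genes of a pathway share regulators and libraries and are not independent of each other.

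**Figure D2:**
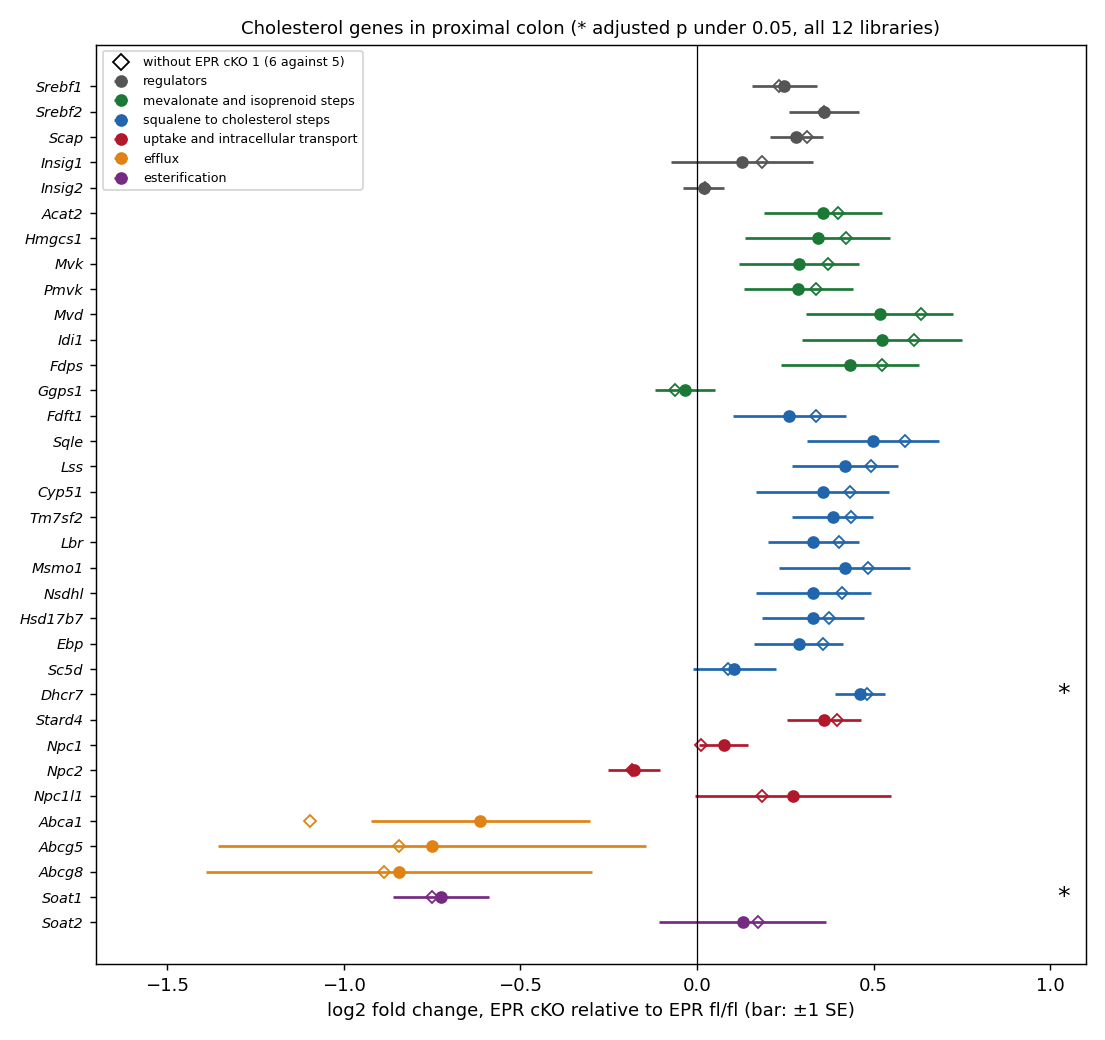
Log2 fold change (EPR cKO relative to EPR fl/fl, bar ± 1 SE, 12 libraries) of the 34 cholesterol genes by role, with open diamonds for the fit without EPR cKO 1. Of the 20 synthesis genes, 19 lie above 0, the 3 efflux genes lie below 0, and asterisks mark Dhcr7 and Soat1.

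Among the regulators, all 5 log2 fold changes were above 0 and none passed the adjusted threshold. Scap, the sterol sensor that escorts SREBPs, was at 58.3, 64.3 and 68.7 CPM (lowest, median and highest) in EPR fl/fl and at 64.5, 80.5 and 84.8 CPM in EPR cKO. EPR cKO 1 was the lowest EPR cKO library and lay within the control range, while the other 5 lay above it. The difference on the log2 scale was 0.28 (SE 0.07, adjusted p = 0.0692). In addition, 18.6% of the exon bases of Scap overlap an antisense gene, 5830462I19Rik. Without strand in the counting such reads could be shared, and the use of strand is not given in the sources used here.

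Srebf2 was at 114, 125 and 144 CPM in EPR fl/fl and at 129, 156 and 193 CPM in EPR cKO. The groups overlapped through EPR cKO 5, the lowest EPR cKO library, and 5 of the 6 EPR cKO libraries lay above all controls. On the log2 scale the difference was 0.36, with an approximate 95% interval of 0.16 to 0.56 (SE 0.10, adjusted p = 0.0800). Intervals here and below were set from the SE and are slightly narrower than the test itself would give. Srebf1, whose products control fatty acid synthesis more than sterol synthesis, was at 77.5 ± 4.09 and 92 ± 14.6 CPM (SD, n = 6; log2 fold change 0.25, adjusted p = 0.187). Of the sterol-dependent retention factors, Insig1, itself an SREBP target, was at 102 ± 25.4 and 112 ± 29.1 CPM (0.13, adjusted p = 0.743), and Insig2 was at 50.3 ± 2.19 and 51 ± 3.28 CPM (0.02, adjusted p = 0.877). The interval for Insig2 was −0.10 to 0.14, the narrowest among the regulators, while that of Insig1 ran from −0.27 to 0.53.

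The 8 genes of the mevalonate and isoprenoid steps had log2 fold changes from −0.03 (Ggps1) to 0.52 (Idi1), with a median of 0.35. None passed the adjusted threshold, and 3 (Mvd, Idi1 and Fdps) had an unadjusted p under 0.05. Hmgcs1, the synthase that makes HMG-CoA, was at 167, 329 and 356 CPM in EPR fl/fl and at 238, 381 and 487 CPM in EPR cKO. EPR fl/fl 3 was the lowest control and EPR cKO 1 the lowest EPR cKO library, and 3 of the 6 EPR cKO libraries lay above all controls. The difference, 0.34 on the log2 scale (SE 0.21, adjusted p = 0.392), was not distinguishable from the spread between mice. By length, Hmgcs1 had the highest level of the set, at 85.3 ± 21.5 CPM per kilobase of exon in EPR fl/fl (SD, n = 6).

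Mvd, the decarboxylase that yields isopentenyl diphosphate, was at 20.5 ± 4.07 and 29.3 ± 8.99 CPM (log2 fold change 0.52, SE 0.21, adjusted p = 0.215), and Idi1, the isomerase of that product, at 25 ± 7.03 and 35.9 ± 9.19 CPM (0.52, SE 0.23, adjusted p = 0.247). Acat2, the cytosolic thiolase at the start of the route, and the kinases Mvk and Pmvk had log2 fold changes of 0.36, 0.29 and 0.29. Ggps1 makes geranylgeranyl diphosphate, which is used for protein prenylation and not for sterols. It was the 1 synthesis gene below 0, at 46 ± 4.11 and 44.9 ± 5.05 CPM, and the interval of its difference was −0.20 to 0.14. Fdps, the farnesyl diphosphate synthase, was at 7.06 ± 1.63 and 9.51 ± 2.09 CPM (0.43, adjusted p = 0.265), but 77.4% of its exon bases overlap Gm43738 on the same strand, so that some of its reads may have been counted elsewhere or not at all. Acat2 shared 39.1% of its 50-base stretches with other genes, mostly Acat3, Idi1 shared 25.3%, and 16% of the exon length of Hmgcs1 lies opposite exons of Gm48342. To that extent the 4 values are uncertain.

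All 12 genes of the squalene to cholesterol steps had log2 fold changes above 0, from 0.11 (Sc5d) to 0.50 (Sqle), with a median of 0.34. Of these, 8 had an unadjusted p under 0.05, and Dhcr7 passed the adjusted threshold. Dhcr7 encodes the reductase that turns dehydrocholesterol, also the precursor of vitamin D, into cholesterol. It was at 42, 44.9 and 49.1 CPM in EPR fl/fl and at 53.6, 62.4 and 69.1 CPM in EPR cKO. All 6 EPR cKO libraries lay above all 6 controls, including EPR cKO 1, which was the lowest of its group, and EPR fl/fl 3, which was the highest control. Means were 44.9 ± 2.68 and 61.8 ± 5.82 CPM (SD, n = 6), a rise of 37.7% or 0.46 on the log2 scale (SE 0.07, approximate 95% interval 0.32 to 0.61, adjusted p = 0.00428). The rise stayed past 0.05 in all 8 alternative fits (adjusted p up to 0.0353) and in all 12 fits without 1 of the libraries (up to 0.0193). Dhcr7 lies at chr7:143823167-143848410 on the plus strand (mm10), overlaps no exon of another gene, and shared 1.37% of its 50-base stretches with other genes.

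Tm7sf2, a sterol reductase that acts after Cyp51, was at 14, 16.6 and 19.7 CPM in EPR fl/fl and at 16.3, 22.7 and 25.6 CPM in EPR cKO. EPR cKO 1 was again the lowest EPR cKO library and the only 1 inside the control range. The estimated rise of 0.38 on the log2 scale did not pass the test (SE 0.12, adjusted p = 0.104), and the gene shared 9.87% of its 50-base stretches with its neighbour Vps51. Lbr, a nuclear envelope protein with the same reductase activity, was at 81.2 ± 10.2 and 102 ± 18.7 CPM (0.33, adjusted p = 0.205).

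Sqle, the squalene epoxidase and a rate-limiting enzyme of the route, was at 50.9, 89.5 and 102 CPM in EPR fl/fl and at 71.3, 126 and 141 CPM in EPR cKO. EPR cKO 1 and EPR cKO 2 lay within the control range and the other 4 EPR cKO libraries above it. The difference was 0.50 on the log2 scale (SE 0.19, adjusted p = 0.187). Lss, the lanosterol synthase, differed by 0.42 on the same scale (SE 0.15, adjusted p = 0.167), Cyp51, the lanosterol demethylase, by 0.36 (adjusted p = 0.333), and Fdft1, the squalene synthase, by 0.26 (adjusted p = 0.402). Exons on the other strand lie over 19.4% of the exon length of Fdft1 (Ctsb) and 8.16% of that of Lss. Nsdhl and Hsd17b7, which with Msmo1 remove methyl groups from the sterol ring, each had a log2 fold change of 0.33, and the sterol isomerase Ebp had 0.29.

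Msmo1, the methylsterol monooxygenase, lies on the same chromosome as EPR, with 352 kb between them. It was at 52.2, 99.5 and 109 CPM in EPR fl/fl and at 83.8, 124 and 151 CPM in EPR cKO. The library EPR fl/fl 3 was far below the other controls, and 4 of the 6 EPR cKO libraries lay above all controls. Its log2 difference of 0.42 had an interval of 0.05 to 0.79 (SE 0.19, adjusted p = 0.258), and the median over all 20 synthesis genes, most on other chromosomes, was 0.35. The part of the nearness to EPR in the difference of Msmo1 was not tested. Msmo1 shared 0.718% of its 50-base stretches with other genes. The paper reports, from its RNA-Seq of proximal colon as well as from qRT-PCR, that genes on either side of EPR were not affected by the deletion. In its qRT-PCR of purified crypts, not whole tissue, Msmo1 did not differ significantly.

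**Figure D3:**
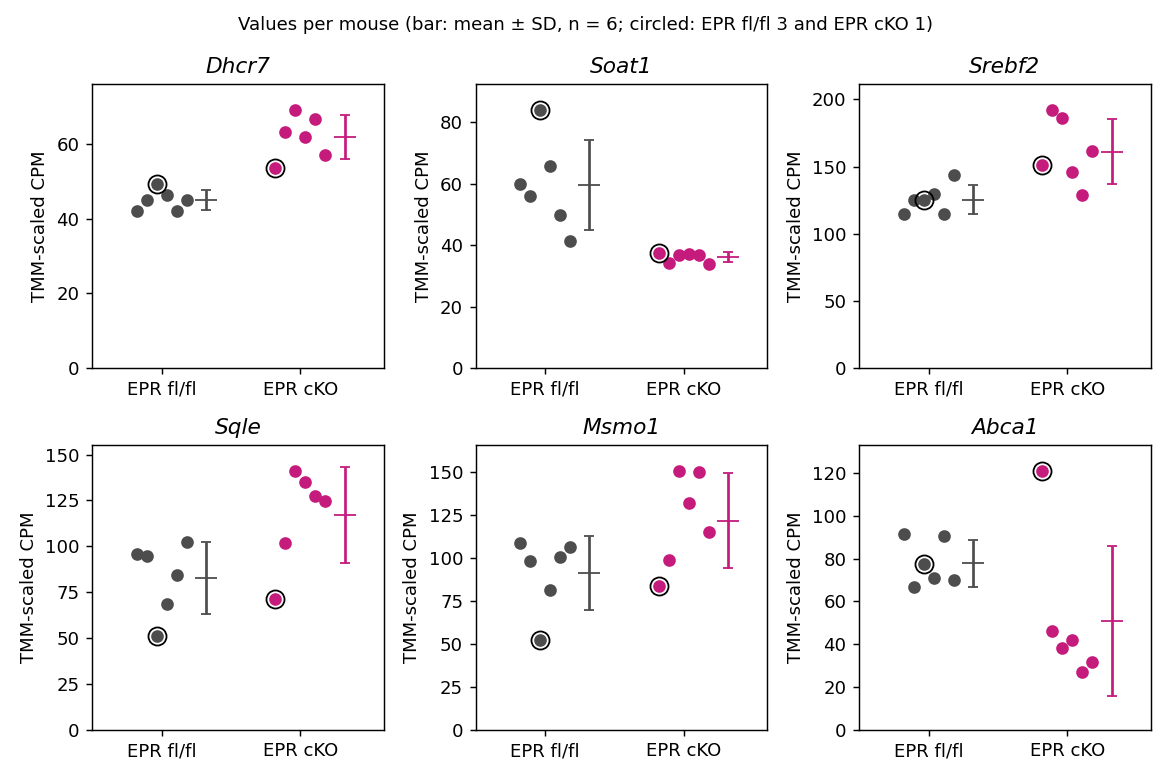
TMM-scaled CPM of 6 cholesterol genes in each mouse (points), with the mean ± SD (n = 6) beside each group and circles around EPR fl/fl 3 and EPR cKO 1. The groups are apart for Dhcr7 and Soat1 and overlap for Srebf2, Sqle, Msmo1 and Abca1, where EPR cKO 1 is the highest library of all.

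Among the genes of uptake and intracellular transport, 3 of 4 had log2 fold changes above 0 and none passed the adjusted threshold. Stard4, a cytosolic sterol carrier and SREBP-2 target, was at 153, 182 and 206 CPM in EPR fl/fl and at 189, 238 and 271 CPM in EPR cKO. EPR cKO 1 was the only EPR cKO library inside the control range, and the difference was 0.36 on the log2 scale (SE 0.10, adjusted p = 0.0918). Npc1 and Npc2 export cholesterol from lysosomes. Npc1 was at 75.8 ± 4.94 and 80 ± 6.99 CPM (log2 fold change 0.08, adjusted p = 0.571), and Npc2 at 120 ± 13.1 and 106 ± 4.06 CPM (−0.18, adjusted p = 0.226). Npc1l1, the intestinal sterol importer, was low in both groups, at 1.46 ± 0.531 and 1.78 ± 0.463 CPM from counts of 14 to 68 per library, and the interval of its log2 difference spanned −0.28 to 0.83.

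All 3 efflux genes had log2 fold changes below 0, and none passed the adjusted threshold. Abca1, which loads cholesterol onto apolipoproteins, was at 66.5, 74.1 and 91.4 CPM in EPR fl/fl and at 26.8, 39.9 and 121 CPM in EPR cKO. The highest EPR cKO value was that of EPR cKO 1, which lay above all controls, while the other 5 lay below all controls. The log2 difference over all libraries was −0.61 (SE 0.31, adjusted p = 0.314), and −1.09 without EPR cKO 1 (SE 0.14, adjusted p = 0.000656). EPR cKO 1 also had the highest summed smooth muscle markers, 8552 CPM, against 930 to 2479 CPM in the rest of its group and 2836 to 4980 CPM in the controls. The log2 fold change of all 8 smooth muscle markers was below 0 with 0 called. EPR cKO 1 was likewise the highest of its group in the summed markers of other cell types outside the epithelium. These were fibroblasts (2905 CPM), adipocytes (972 CPM), endothelium (80.1 CPM), and enteric neurons and glia (105 CPM). The part of any of these cell types in the values of Abca1 was not tested. With the tissue composition score as a covariate, Abca1 was at −0.13 on the log2 scale (SE 0.12, adjusted p = 0.669).

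Abcg5 and Abcg8 form the heterodimer that pumps sterols back into the lumen. Abcg5 was at 0.778, 3.54 and 7.84 CPM in EPR fl/fl and at 0.134, 2.36 and 3.15 CPM in EPR cKO, and Abcg8 at 0.616, 2.35 and 6.61 CPM and at 0.267, 1.54 and 2.58 CPM. EPR fl/fl 3 was the highest and EPR cKO 4 the lowest of all libraries for both genes. On the log2 scale they differed by −0.75 (SE 0.61, adjusted p = 0.521) and −0.84 (SE 0.55, adjusted p = 0.425). Their intervals, −1.96 to 0.46 and −1.93 to 0.25, show that a difference was not detectable at this spread. Counts ran from 3 to 248 for Abcg5 and from 6 to 209 for Abcg8.

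Of the esterifying enzymes, Soat1, the widely expressed acyltransferase that stores cholesterol as esters, was lower in EPR cKO. It was at 41.4, 58 and 84.2 CPM in EPR fl/fl and at 33.9, 36.9 and 37.3 CPM in EPR cKO. All 6 EPR cKO libraries lay below all 6 controls and close to each other, while the controls were spread, with EPR fl/fl 3 highest and EPR fl/fl 6 lowest. Means were 59.6 ± 14.7 and 36.1 ± 1.56 CPM (SD, n = 6), and Soat1 fell by 0.72 on the log2 scale (SE 0.14, adjusted p = 0.0143), with an approximate 95% interval of −0.99 to −0.45. The fall stayed past 0.05 in 7 of 8 alternative fits and in all 12 fits without 1 of the libraries (adjusted p up to 0.0440). With the tissue composition score as a covariate the log2 fold change was −0.70 and the adjusted p was 0.0570.

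The summed level of the 9 goblet cell markers was lower in EPR cKO, as was Soat1. All 9 had log2 fold changes below 0 and 6 passed the adjusted threshold, with summed levels of 13407 to 28454 CPM in the controls and of 6167 to 8571 CPM in EPR cKO mice. EPR fl/fl 3 held the highest value of Soat1 and of these markers, while the lowest controls were EPR fl/fl 6 for Soat1 and EPR fl/fl 5 for the markers. The summed enteroendocrine markers were also highest in EPR fl/fl 3 (499 CPM), but their groups overlapped. The part of goblet or enteroendocrine cell RNA in the fall of Soat1 was not tested. The 9 markers of macrophages, which are known to express Soat1, had log2 fold changes below 0 with 0 called, at 186 to 503 and 163 to 327 CPM, and EPR fl/fl 3 held the lowest of the control values. Soat1 lies at chr1:156424525-156474331 on the minus strand (mm10), and shared 0.719% of its 50-base stretches with other genes. Soat2, the isoform of absorptive enterocytes and hepatocytes, was at 2.02 ± 0.706 and 2.22 ± 0.511 CPM (log2 fold change 0.13, adjusted p = 0.781). By length, Soat2 stood at 0.916 ± 0.320 CPM per kilobase in EPR fl/fl, against 7.11 ± 1.76 for Soat1 (SD, n = 6).

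Leaving out EPR cKO 1 changed the count of calls. Without it, 11 of the 34 genes were higher (32.4%, against 7.44% of all tested genes) and 2 were lower (5.88%, against 14.4%). All EPR cKO libraries left in this fit lay above all controls in the tissue composition score (from 1.94, against up to 1.56). Genotype and tissue composition can therefore not be told apart in these calls. The higher genes were Srebf2, Scap, Mvd, Fdps, Sqle, Lss, Tm7sf2, Lbr, Ebp, Dhcr7 and Stard4, 8 of them synthesis genes, and the lower genes were Abca1 and Soat1. With EPR fl/fl 3 left out as well, 13 were higher (38.2%, against 4.85%), now with Idi1 and Cyp51, and the same 2 were lower (5.88%, against 11.9%). Mvd was at 0.63 on the log2 scale (SE 0.16, adjusted p = 0.0141) without EPR cKO 1 and Sqle at 0.59 (SE 0.16, adjusted p = 0.0224), while Msmo1 was at 0.48 (SE 0.18, adjusted p = 0.0678). The other genes that joined Dhcr7 without EPR cKO 1 were Scap (0.31, adjusted p = 0.00687), Tm7sf2 (0.44, 0.00935), Stard4 (0.40, 0.0131), Lbr (0.40, 0.0141), Lss (0.49, 0.0157), Ebp (0.36, 0.0215), Srebf2 (0.36, 0.0267) and Fdps (0.52, 0.0430), each with its log2 fold change and adjusted p.

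The count also moved with the test on all 12 libraries. The DESeq2 Wald test gave 5 higher genes (14.7%, against 2.76% of all tested genes) and 1 lower gene (2.94%, against 2.97%), the higher ones being Dhcr7, Scap, Srebf2, Stard4 and Tm7sf2. Limma-voom with sample quality weights, which gives deviating libraries less weight, had 15 higher (44.1%, against 8.6%) and 2 lower (5.88%, against 11.9%). With the tissue composition score as a covariate, Dhcr7 alone passed (log2 fold change 0.40, SE 0.08, adjusted p = 0.0229), and the median of the 20 synthesis genes was 0.08 with 15 above 0. The score differs between the genotypes itself, so that the composition of the tissue and the genotype cannot be told apart for these genes. It is built from epithelium and smooth muscle markers alone, so that shifts among epithelial cells are not covered, for Dhcr7 as for the others.

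The synthesis genes moved together from mouse to mouse. Among the controls, EPR fl/fl 3 was the lowest for 17 of the 20 synthesis genes and EPR cKO 1 the lowest EPR cKO library for 18. In the map of single libraries these columns are low through both blocks of synthesis genes, while EPR cKO 3, EPR cKO 4 and EPR cKO 5 held the highest EPR cKO value for 6, 5 and 6 of them. The mean log2 CPM of the 20 genes was 4.81 in EPR fl/fl 3 and 5.29 to 5.51 in the other controls, and 5.18 in EPR cKO 1 and 5.52 to 5.89 in the other EPR cKO libraries. The lowest of these 5 was thus just above the highest control, 5.51. Markers of dividing cells and of epithelium were lowest in the same libraries. The 10 proliferation markers summed to 407 CPM in EPR fl/fl 3, against 535 to 705 CPM in the other controls, and to 388 CPM in EPR cKO 1, against 517 to 899 CPM in the rest of that group. All 10 had log2 fold changes above 0 with 0 called, and their median was 0.33. The 10 epithelium markers summed to 7767 CPM in EPR fl/fl 3 and to 9587 CPM in EPR cKO 1, the lowest of each group, and also had 10 log2 fold changes above 0 with 0 called. The part of dividing or epithelial cells in the values of the synthesis genes was not tested.

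**Figure D4:**
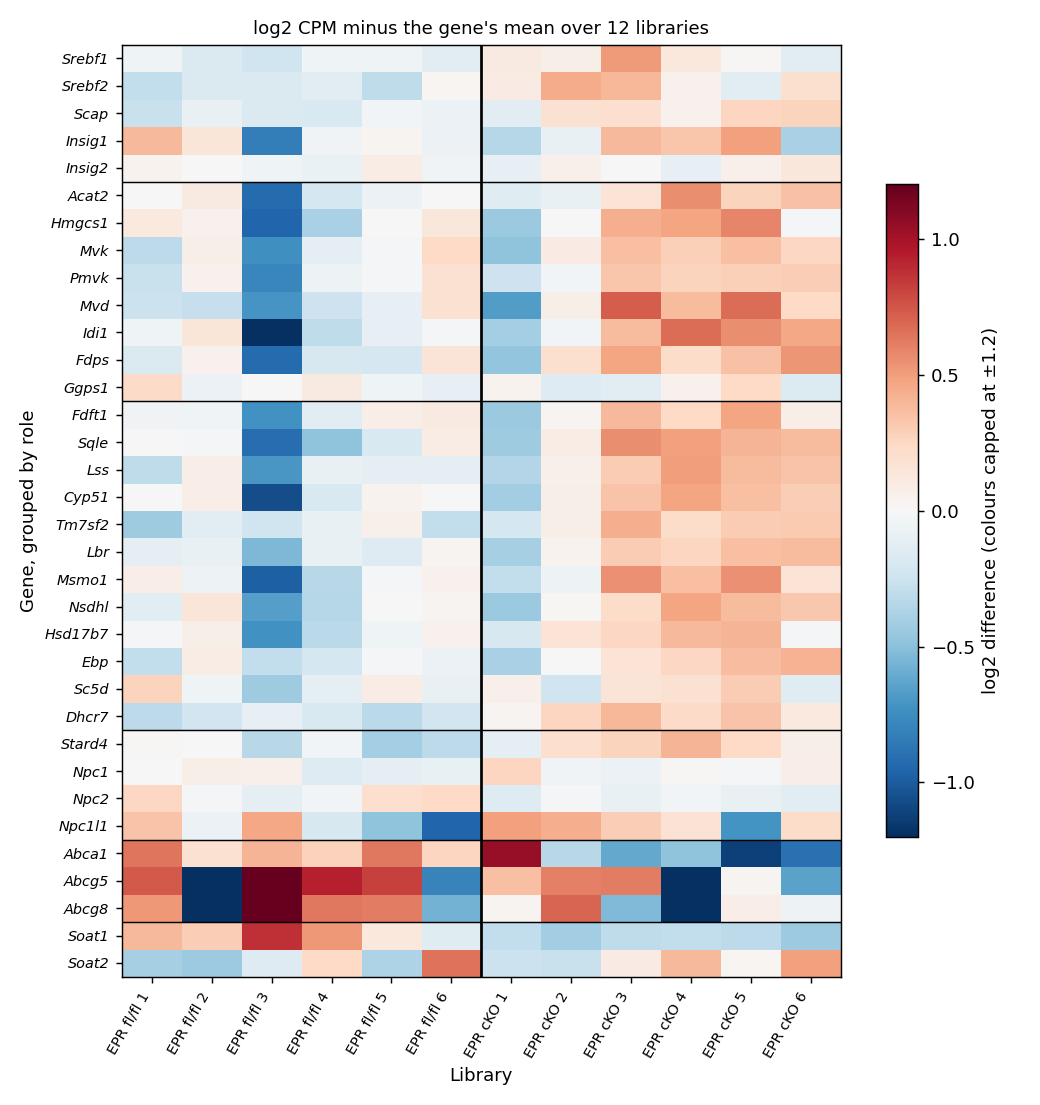
Log2 CPM of each of the 34 cholesterol genes (rows, grouped by role) in each of the 12 libraries (columns), minus the mean of the gene over the 12 libraries. EPR fl/fl 3 is low in 17 of the 20 synthesis genes and high in Soat1, Abcg5 and Abcg8, and EPR cKO 1 is the lowest EPR cKO library in 18 of the 20.

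To describe this, the deviations of each gene from its group mean (log2 CPM) were set against those of Hmgcs1 over the 12 libraries. Pearson r was above 0.8 for 14 of the 19 other synthesis genes, and for 1.66% of 15951 other tested genes. The median was 0.85 over the synthesis genes and −0.05 over all genes. In this family of 67 relations, which also holds the relations to the tissue composition score, Msmo1 had the highest value, r = 0.98 and rho = 0.85 (permutation p = 5e-05 and 0.0017, Benjamini-Hochberg 0.00335 and 0.0263). Hsd17b7 had r = 0.97 and rho = 0.90 (permutation p = 0.0001 and 0.00036, Benjamini-Hochberg 0.00335 and 0.0221). Hmgcs1 and Msmo1 lie on different chromosomes. Their promoters hold the sterol regulatory element core, as does that of Srebf2 (r = −0.16 to Hmgcs1), while that of Hsd17b7 holds none. The part of the motif in the co-variation was not tested.

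The relation rested in part on the extreme libraries. Without EPR fl/fl 3 and EPR cKO 1, the libraries farthest from the median of Hmgcs1, 5 of the 19 genes kept r above 0.8, namely Msmo1 (0.92), Hsd17b7 (0.91), Fdft1 (0.84), Sc5d (0.81) and Sqle (0.80). Within each group of 6 alone, 14 of the 19 were above 0.8, but each group still held its extreme library, EPR fl/fl 3 or EPR cKO 1. Insig1 followed Hmgcs1 (r = 0.91, rho = 0.76, permutation p = 0.00106 and 0.0102, Benjamini-Hochberg 0.00789 and 0.0487), with r = 0.80 without EPR fl/fl 3 and EPR cKO 1. Srebf2 did not (r = −0.16, rho = −0.29, permutation p = 0.624 and 0.391, Benjamini-Hochberg 0.666 and 0.504), nor did Ggps1 (r = 0.16, rho = 0.20, permutation p = 0.636 and 0.546, Benjamini-Hochberg 0.666 and 0.629).

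Dhcr7, the synthesis gene that passed the test between genotypes, was among those with the weakest relation to Hmgcs1 (r = 0.16, rho = 0.15, permutation p = 0.627 and 0.654, Benjamini-Hochberg 0.666 and 0.718). Its r was −0.84 in EPR fl/fl, where EPR fl/fl 3 was high in Dhcr7 and low in Hmgcs1, and 0.85 in EPR cKO, where EPR cKO 1 was low in both. The difference between these values of r was not tested. The efflux genes and Soat1 had negative values over the 12 libraries, −0.64 for Abcg8, −0.59 for Soat1, −0.52 for Abcg5 and −0.50 for Abca1, with rho from −0.58 to −0.39 and Benjamini-Hochberg values of 0.0731 to 0.139 for r. Soat2, the other esterifying enzyme, had r = 0.17 (rho = 0.22, permutation p = 0.630 and 0.506, Benjamini-Hochberg 0.666 and 0.605). Without EPR fl/fl 3 and EPR cKO 1 the values were −0.48 for Abcg8, −0.33 for Abcg5, −0.19 for Soat1 and −0.15 for Abca1. The sign was not the same in both groups for Abca1 (0.10 in EPR fl/fl, −0.79 in EPR cKO) and Soat1 (−0.86 and 0.28).

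**Figure D5:**
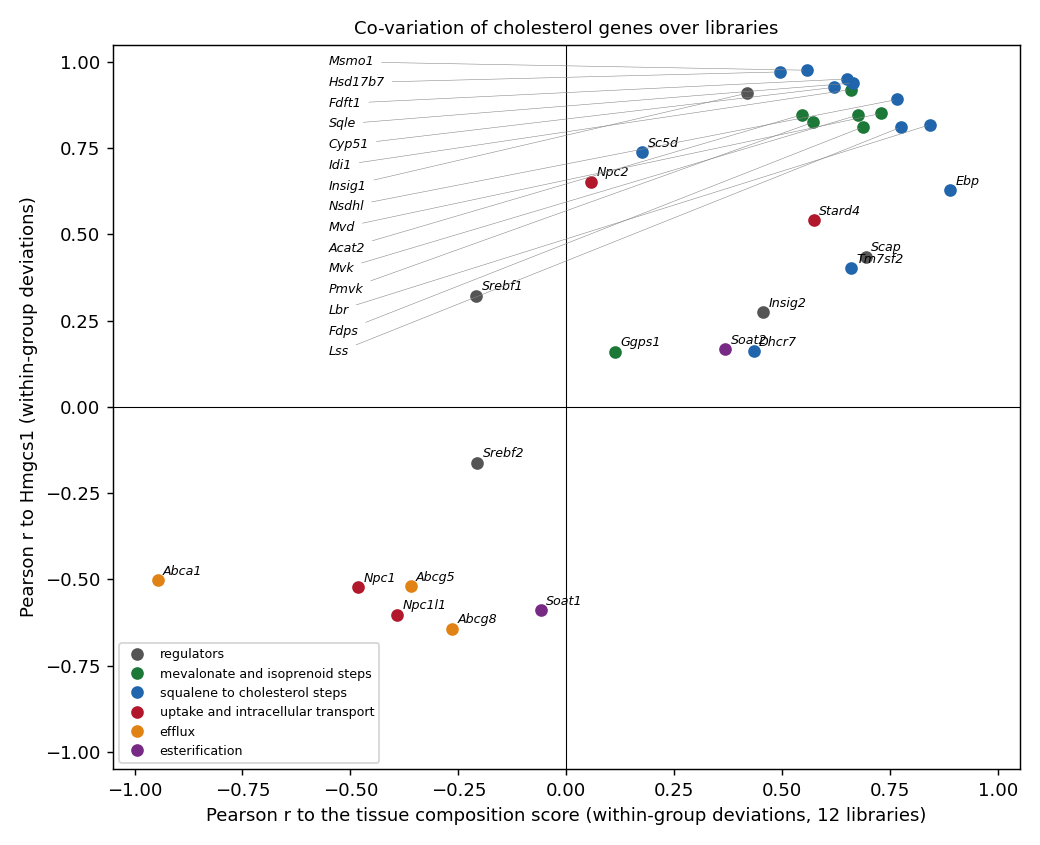
Pearson r of each cholesterol gene to Hmgcs1 (y axis) and to the tissue composition score (x axis), both from deviations from the group mean over 12 libraries, coloured by role. Of the 19 synthesis genes shown, 14 lie above 0.8 on the y axis, and Abca1 lies at −0.95 on the x axis.

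The deviations were also set against the tissue composition score. The median r of the 20 synthesis genes to the score was 0.65, from 0.11 (Ggps1) to 0.89 (Ebp). An r above 0.8 was reached by 2 of the 20, Ebp and Lbr, and an absolute r above 0.8 by 20.4% of all tested genes. Most values rested on EPR cKO 1 and EPR cKO 5, and without these libraries they ran from −0.49 (Dhcr7) to 0.69 (Ebp), with Mvd going from 0.73 to 0.05, Fdft1 from 0.65 to 0.13 and Hmgcs1 from 0.58 to 0.18. Ebp had r = 0.89 and rho = 0.77 (permutation p = 0.00153 and 0.00883, Benjamini-Hochberg 0.00988 and 0.0455). EPR cKO 1 and EPR cKO 5 are the libraries farthest from the median of the score. Abca1 had r = −0.95 and rho = −0.73 (permutation p = 0.00177 and 0.0207, Benjamini-Hochberg 0.00988 and 0.0867), and −0.64 without these 2 libraries. Soat1 had r = −0.06 (rho = −0.12, permutation p = 0.633 and 0.668, Benjamini-Hochberg 0.666 and 0.722). Dhcr7 had r = 0.43 (rho = 0.10, permutation p = 0.301 and 0.789, Benjamini-Hochberg 0.373 and 0.801).

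Genes of related pathways were read from the same fit, in 5 lists of 57 genes, of which 56 were tested. None passed an adjusted p of 0.05 with edgeR, while 11 were higher and 7 lower at an unadjusted p under 0.05 (19.6% and 12.5%, against 11.1% and 7.12% of all tested genes). In all, 25 lay above 0 (44.6%, against 52.9%) and 31 below. Of the 56, DESeq2 called 5, where it called 5.72% of all tested genes, limma-voom with sample quality weights 17 (20.5% of all), and edgeR without EPR cKO 1 called 16 (21.8% of all). The fatty acid synthesis genes, targets of SREBP-1, had 4 of 14 log2 fold changes above 0 and a median of −0.25, where the 20 cholesterol synthesis genes had 19 and 0.35. In that list the smallest p belonged to the desaturase Scd2, at 422 ± 68.4 and 651 ± 188 CPM (log2 fold change 0.63, SE 0.18, adjusted p = 0.0991), and it passed without EPR cKO 1 (0.71, SE 0.15, adjusted p = 0.00845). The 7 adipocyte markers, a cell type rich in fatty acid synthesis, all had log2 fold changes below 0 with 0 called and summed to 434 to 1417 CPM in the controls and to 54.5 to 972 CPM after the deletion. Their part in the fatty acid list was not tested.

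The list of liver X receptors and targets held Nr1h2, Nr1h3, Rxra, Abcg1, Mylip, Lpcat3 and Abca7, without the efflux genes described above. It had 4 of 7 above 0 (median 0.03), with Nr1h3, Abcg1 and Mylip below 0. The smallest p over all 12 libraries was that of the receptor partner Rxra, at 136 ± 8.57 and 160 ± 14.8 CPM (log2 fold change 0.23, SE 0.07, adjusted p = 0.108). The genes of SREBP processing and turnover had 5 of 9 above 0 (median 0.04), with the smallest p in the protease gene Mbtps2 (0.21, SE 0.07, adjusted p = 0.119). Sterol and lipoprotein handling had 3 of 13 above 0 (median −0.11). In it, Stard5, a sterol-binding protein, was at 78.6 ± 9.66 and 110 ± 20.1 CPM (0.48, SE 0.12, adjusted p = 0.0591; without EPR cKO 1, 0.40, SE 0.12, adjusted p = 0.0314). The isoprenoid and sterol side branches had 9 of 13 above 0 (median 0.12). In them, Cyp27a1, a mitochondrial sterol hydroxylase, was at 15.4 ± 3.70 and 9.39 ± 2.52 CPM (−0.71, SE 0.20, adjusted p = 0.0781; without EPR cKO 1, −0.87, SE 0.17, adjusted p = 0.00518).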

How the data were processed

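RNA-Seq libraries of proximal colon were compared between genotypes, with 6 mice in each. The authors trimmed reads, aligned them to mm10 with STAR 2.5.3a and counted them per gene with featureCounts, and the deposited values were raw counts. Strand use and the treatment of reads with several alignments are not given in the sources used here. All 12 count columns were matched to samples by name, with 0 left over. Genes reaching a CPM of 1 in 4 or more libraries were tested across all genes with the edgeR 4.0.16 quasi-likelihood F test in R 4.3.3, with TMM scaling and Benjamini-Hochberg adjustment over all tested genes. CPM is given as mean ± SD. Alternatives were DESeq2 1.42.0, limma 3.58.1 (voom with sample weights), other scalings and filters, a replicate block, a tissue composition covariate and leaving out each library. The genes, lists and tests were chosen with earlier results of these data known. Genes in full were the 6 of the set with the smallest p and those whose role needed a sentence, and in related lists the gene with the smallest p. The test was checked on simulated data, where it missed most genes set to differ by 0.5 on the log2 scale. DESeq2 made a larger share of false calls there than edgeR. Replicates were separate mice. Over 30 pairs of libraries of the same group the chi-square per gene was at least 19.7, so that no library was a repeat.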

Additional observations from a re-analysis of the deposited data

Results flagged for a closer look

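Values of a gene or of the tissue composition score in 1 group were examined. They were listed where the gap of the highest or lowest mouse to its neighbour, divided by the range of the group, passed the 95% limit of Dixon's test. That was so in 7 of the 70 sets of 6 values that were examined, where chance would give about 3.5 (about 1 in 20) in independent sets. The synthesis genes co-vary over libraries, so that the sets are not independent and an excess cannot be read from these numbers. EPR fl/fl 3 was low in 3 synthesis genes: it held 44.5 CPM of Fdft1 against 67.5 to 79.8 in the other controls, 62.1 CPM of Cyp51 against 114 to 137, and 61.8 CPM of Lbr against 80.8 to 92.2. The same library held 6.61 CPM of Abcg8 against 0.616 to 2.46 in the other controls. EPR cKO 1 held 121.0 CPM of Abca1 against 26.8 to 46.3 in the rest of that group. EPR cKO 3 held 119.7 CPM of Srebf1 against 76.7 to 91.8, and EPR cKO 5 held 0.902 CPM of Npc1l1 against 1.74 to 2.20.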

How the results depend on the processing

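Genes of the set past an adjusted p of 0.05 numbered 2 (1 higher, 1 lower, 1 synthesis gene higher), with 0 in the related lists. With the DESeq2 Wald test they numbered 6 (5 higher, 2 synthesis genes higher, 5 related), with limma-voom and sample quality weights 17 (15 higher, 2 lower, 12 synthesis, 17 related), and with the composition covariate 1 (0 lower). With EPR cKO 1 and EPR fl/fl 3 both left out, an alternative chosen after seeing the data, they numbered 15 (13 higher, 2 lower, 10 synthesis, 12 related), and synthesis genes with r above 0.8 to Hmgcs1 went from 14 to 5. Leaving out each library gave 2 to 13 genes past the threshold (1 to 11 higher, 1 to 2 lower, 1 to 8 synthesis genes, 0 to 16 related), the highest of each without EPR cKO 1, and without EPR cKO 5 Srebf2 was also higher (2 higher). The group difference in the composition score, 1.23, was 0.982 when EPR cKO 5 was left out and 1.72 when EPR cKO 1 was (exact permutation p = 0.00216 for the latter). Signs reversed for Insig2 with total counts only (−0.00969), with no filter on low counts (−0.00245), with the composition covariate (−0.0274) and without EPR cKO 6 (−0.00580), and for Ggps1 without EPR fl/fl 1 (0.00149). Over the fits without 1 library Insig2 ran from −0.00580 to 0.0404 and Ggps1 from −0.0896 to 0.00149. With the covariate they also reversed for Insig1 (−0.10), Mvk (−0.00888), Fdft1 (−0.0174), Nsdhl (−0.00163), Ebp (−0.00263) and Soat2 (−0.0799), none of them called, and the cause was not tested. With the replicate number as a block, Dhcr7 and Soat1 were the 2 genes called, as without it. Same-numbered libraries had deviations correlated from −0.24 to 0.34, over 0.1 in 2 of 6 pairs. Libraries of different numbers were not compared, so that a pairing of mice by number was neither shown nor excluded. The standard errors of the synthesis genes, 0.07 to 0.23 on the log2 scale beside differences of −0.03 to 0.52, limit what a missing call says.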
